A study of Mus musculus with 4 samples.

Results

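The genes described here encode the desmosome, the adhesive plaque that joins the keratin filaments of neighbouring epithelial cells. The list holds 10 genes (Dsp, Dsg2, Dsg3, Dsc2, Dsc3, Jup, Pkp1, Pkp2, Pkp3 and Perp), and its members are all probe sets whose gene symbol in the array annotation is 1 of these. The annotation names 22 such probe sets among the 45101 on the array, and they cover 9 of the 10 genes. No probe set carries the symbol Dsg3, which was therefore not analysed here. For a gene with several probe sets, the one of highest mean across the arrays was used, and all 9 genes were among the 12264 genes analysed.

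Desmosomes are built from 3 layers of proteins. The desmogleins (Dsg) and desmocollins (Dsc) are cadherins that bind across the gap between cells, plakoglobin (Jup) and the plakophilins (Pkp) are armadillo proteins that hold the cadherin tails, and desmoplakin (Dsp) ties this plaque to keratin filaments. Perp is a tetraspan membrane protein of the desmosome and a transcriptional target of p53 and p63. Isoforms differ by layer in many epithelia: Dsg2, Dsc2 and Pkp2 are the forms of simple epithelium, while Dsg3, Dsc3 and Pkp1 are associated with stratified epithelium and basal cells. In the mammary gland, desmosomes join luminal cells to each other and to the myoepithelial layer.

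RNA came from Comma D beta, a mouse mammary epithelial cell line, grown in 2% serum with EGF (10 ng/ml) and insulin (5 ug/ml). Cells were left untreated or given doxycycline (dox) at 100 ng/ml for 1 day, then sorted into a Sca1+ and a Sca1- fraction of 200k cells each. Both fractions with and without dox give 4 groups, and each is 1 array. The gene of the Sca1 protein itself, Ly6a, has no probe set named in the annotation, so the sort follows the labels. The series title names Bcl11b, but the labels do not say what dox controls in this line, and effects of dox itself and of what it controls cannot be told apart with these groups. The brightest Bcl11b probe set, 1450339_a_at, had log2 levels of 6.87 (Sca1+) and 6.29 (Sca1-) without dox and of 12.11 and 11.99 with it, while its 3 other probe sets were lower or at the floor with dox.

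Values are the authors' log2 levels, which have an exact floor at 3.32, the log2 of 10. Of all probe sets, 44.8% to 48.0% lie at that floor on an array. The epithelial identity in the label was checked on 6 markers, all above the floor on every array (Epcam, Cdh1, Krt8, Krt18, Krt5 and Krt14). Epcam read 11.33, 11.69, 10.28 and 10.92 and Krt14 read 11.77, 11.54, 11.87 and 11.92, in the order untreated Sca1+, untreated Sca1-, dox Sca1+, dox Sca1-. That order is kept below wherever 4 values are given. The summed linear level of the 6 was 11894, 13867, 8585 and 10541. Among the 6 markers, 3 (Epcam, Krt5 and Krt8) fell with dox in the limma fit described below, beside 21.0% of all genes. Their part in the dox differences of the desmosome genes was not tested. A dimmer Epcam probe set, 1447899_x_at, had dox differences of 0.07 in Sca1+ and -0.10 in Sca1- cells. Of 6 T-cell and leukocyte markers 5 lay at the floor on all arrays, among them Ptprc and Cd3e, and the summed linear level of the list ran from 60.3 to 63.6 without dox and from 121 to 122 with it, through Cd68. Of 7 fibroblast markers 3 lay at the floor on all arrays (Col1a1, Col3a1 and Pdgfrb), and their sum was 78.9, 95.4, 755 and 416, through Dcn. Of 4 named endothelial markers 2 (Cdh5 and Tek) lay at the floor on all arrays, with sums of 40.0 to 43.6, as did both named adipocyte markers.

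A difference is given as the log2 level of one array minus that of another, and is counted when it reaches 1, which is 2-fold. With 1 array in each group, a difference within a fraction has no replicate check. In RNA from a sorted population, fewer cells of a type and less RNA per cell cannot be told apart. As a second measure, a limma model with additive terms for dox and Sca1 was fitted to all 12264 genes, and its p-values were adjusted over all of them by the Benjamini-Hochberg method. The fit takes each fraction as an independent sample, whereas both fractions of a treatment may derive from the same culture. Its p-values therefore do not cover the spread between cultures. With 1 residual degree of freedom, its error is how far the dox effects of the fractions differ, moderated by the variances of all genes. An SE is thus not the spread of that gene alone. "Fell" and "rose" below mean an adjusted p under 0.05 in that fit.

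With dox, 5 of the 9 desmosome genes fell: the desmosomal cadherins Dsc2 and Dsg2 and the 3 plakophilins Pkp1, Pkp2 and Pkp3. None of the 9 rose. Among all genes analysed 21.0% fell and 19.7% rose in the same fit. Within Sca1+ cells 2 members, Dsc2 and Pkp1, were at least 2-fold lower with dox, against 12.9% of all genes, and 0 were at least 2-fold higher, against 8.47%. Within Sca1- cells 1 member, Dsc2, was lower by that much, against 11.3%, and 1, Dsc3, was higher, against 7.2%. By size in both fractions, 1 member, Dsc2, was at least 2-fold lower, against 8.56% of all genes, and 0 were at least 2-fold higher in both, against 5.29%. The median over the 9 members of the mean dox difference was -0.48, beside 0.05 over all genes, and it was -0.098 with all probe sets of a gene averaged. The gene that ties the plaque to keratin, Dsp, the membrane protein gene Perp, the plakoglobin gene Jup and the desmocollin gene Dsc3 did not pass the test.

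**Figure D1:**
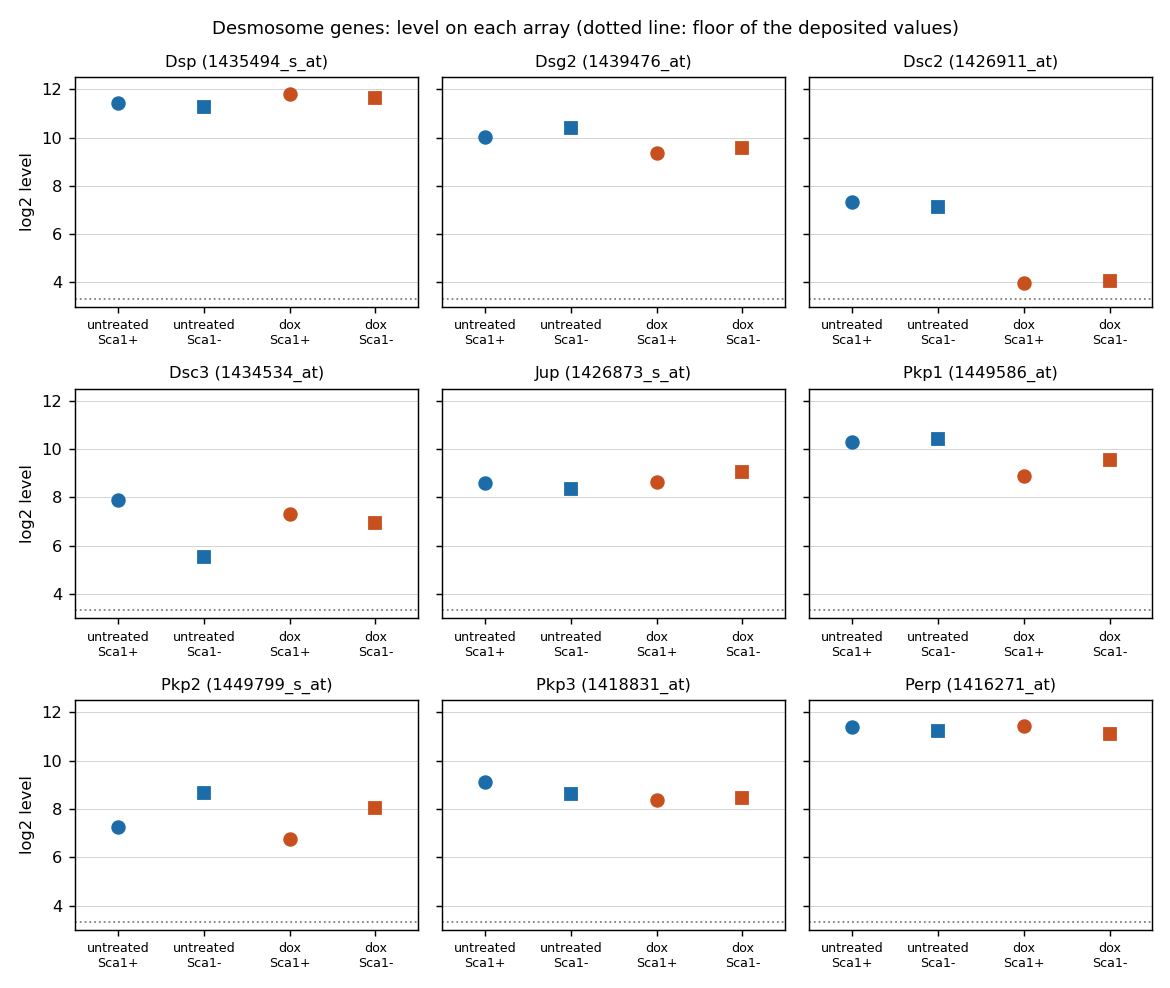
Log2 level (vertical axis) of the most intense probe set of each desmosome gene on the 4 arrays (horizontal axis), with untreated arrays in blue, dox arrays in orange, Sca1+ as circles and Sca1- as squares. Both dox arrays lie near the floor for Dsc2, and the Sca1- square lies above the Sca1+ circle in both treatments for Pkp2.

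Dsc2 had the largest dox difference of the list. The gene encodes desmocollin 2, the desmocollin found in nearly all desmosome-bearing tissues. Its probe set 1426911_at read 7.35, 7.11, 3.97 and 4.07. Both dox arrays were low, near the floor, and both untreated arrays were high, with no overlap. The Sca1+ level was 10.4-fold lower under dox, and the Sca1- level 8.24-fold lower. The size of these folds depends on the dox levels near the floor. The log2 differences in Sca1+ and Sca1- cells were -2.35 and -2.11 with a floor of 32. They were -2.50 and -2.24 with a pseudocount of 16, and -2.08 and -2.46 with both probe sets averaged. In the limma fit the effect was -3.21 ± 0.27 (SE, adjusted p = 1.63e-07). The limma adjusted p of Dsc2 was 0.00685 without the trend of variance on level. It reached 0.168 at its highest, and the call held under 8 of 9 alternatives. A dimmer Dsc2 probe set, 1421156_a_at, read 4.41, 5.20 and 3.63 on the first 3 arrays and lay at the floor in dox Sca1- cells, so its difference was -0.78 in Sca1+ cells and at least 1.88 downward in Sca1- cells.

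Dsg2, which encodes desmoglein 2, moved in the same direction by less. Its probe set 1439476_at read 10.00, 10.41, 9.34 and 9.56. Each dox array was below both untreated arrays. The difference was -0.66 in Sca1+ cells and -0.85 in Sca1- cells, which are 1.58-fold and 1.81-fold. The limma effect was -0.76 ± 0.12 (SE, adjusted p = 0.000127). Its limma adjusted p was 0.0364 without the trend and 0.170 at its highest, and the call held under 8 of 9 alternatives. Dsg2 is the member with most probe sets, 6, all above the floor on every array. All 6 were lower with dox in both fractions, from -0.94 to -0.59 in Sca1+ cells and from -1.12 to -0.77 in Sca1- cells. Probe sets of 1 gene share the same RNA and are not replicates.

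Dsc3 encodes desmocollin 3, the desmocollin of basal layers in stratified epithelium. Its probe set 1434534_at read 7.90, 5.55, 7.31 and 6.94. The untreated Sca1- array was the low one, and the other 3 lay within 0.96 of each other. Dox was accompanied by a lower level in Sca1+ cells (-0.59, or 1.51-fold) and a higher level in Sca1- cells (1.39, or 2.62-fold). The additive model averages these to 0.40 ± 0.31 (SE), with a limma adjusted p of 0.337. The other Dsc3 probe set, 1427637_a_at, lay at or within 0.12 of the floor on all arrays and gives no reading of a difference. Dsc3 and Dsc2, which are neighbouring genes in the mouse gene table, thus had dox differences of opposite sign in Sca1- cells and of the same sign in Sca1+ cells.

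**Figure D2:**
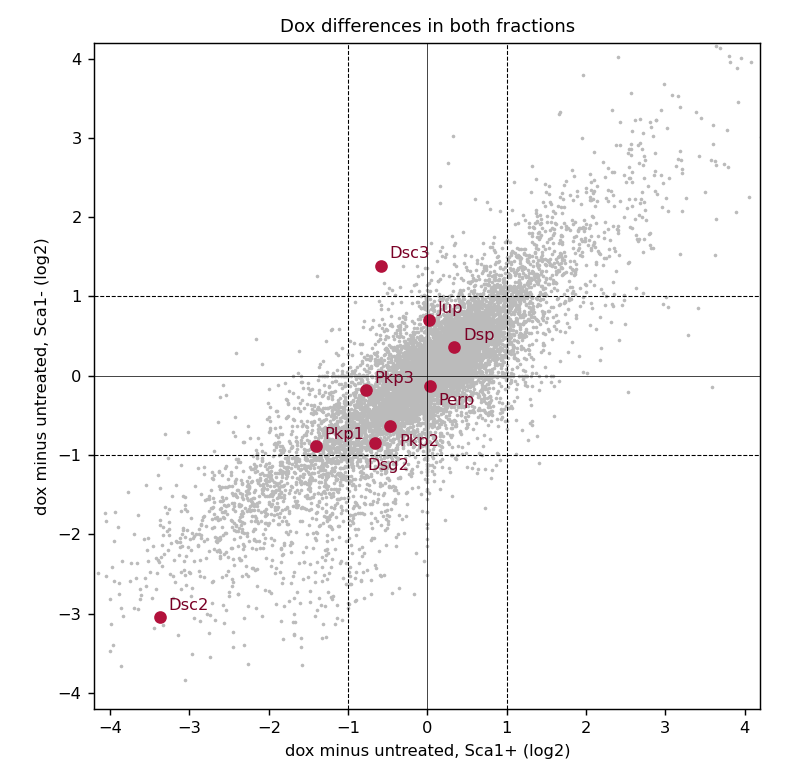
Dox minus untreated (log2) in Sca1+ cells (horizontal axis) against Sca1- cells (vertical axis), for the 9 desmosome genes in red and all 12264 genes in grey, with dashed lines at 2-fold; 53 genes lie outside the axes. Dsc2 is the only red point beyond 2-fold in both fractions, and Dsc3 is the one with a dox increase above 2-fold in Sca1- cells.

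The plakophilins link the cadherin tails to desmoplakin and cluster the plaque. Pkp1, the form linked to stratified epithelium, read 10.28, 10.44, 8.88 and 9.55 by its only probe set. Both dox arrays were lower than both untreated arrays. The difference was -1.41 in Sca1+ cells, or 2.65-fold, and -0.89 in Sca1- cells, or 1.85-fold. The limma effect was -1.15 ± 0.14 (SE, adjusted p = 6.55e-06). Its limma adjusted p was 0.0228 without the trend and 0.207 at its highest, and the call held under 8 of 9 alternatives.

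Pkp3, the plakophilin with the broadest range of epithelia, read 9.13, 8.62, 8.36 and 8.44 by probe set 1418831_at. The dox arrays were again the 2 lowest, and the difference was larger in Sca1+ (-0.78) than in Sca1- cells (-0.18). A dimmer probe set, 1418832_at, gave -0.91 and -0.69. The limma effect of the first was -0.48 ± 0.14 (SE, adjusted p = 0.0142).

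Pkp2, the plakophilin of simple epithelium and heart, read 7.24, 8.66, 6.77 and 8.02 by probe set 1449799_s_at. Here the ranges of untreated and dox arrays overlapped, since the Sca1 fractions lay farther apart than the treatments. Within each fraction the dox array was lower, by -0.47 in Sca1+ and -0.64 in Sca1- cells, and the limma effect was -0.55 ± 0.14 (SE, adjusted p = 0.00588). The next probe set, 1429183_at, gave -0.11 and -0.57. The 2 dimmest Pkp2 probe sets lay at the floor on both Sca1+ arrays. In Sca1- cells they were higher with dox, by 0.70 for 1460511_at and at least 0.30 for 1420259_at. Those Sca1- levels were at or near the floor too, 3.42 and 4.12 for 1460511_at and 3.32 and 3.62 for 1420259_at, without and with dox. With the 4 probe sets averaged, these 2 included, the dox differences were -0.14 and -0.052 and Pkp2 did not pass the test. Without the trend of variance on level, the fit called 3 of the 9 members lower, Dsg2, Dsc2 and Pkp1, against 14.8% of all genes, and 0 higher, against 11.9%, and the limma adjusted p of Pkp2 and Pkp3 became 0.0718 and 0.169; over all alternatives these 2 ran from 0.00534 to 0.625 and from 0.0129 to 0.458.

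Plakoglobin, encoded by Jup, is an armadillo protein of both desmosomes and adherens junctions. Its probe set 1426873_s_at read 8.60, 8.36, 8.62 and 9.06. The dox Sca1- array was the highest, while the dox Sca1+ array did not stand apart from the untreated ones. The differences were 0.02 in Sca1+ and 0.70 in Sca1- cells, and the limma effect of 0.36 ± 0.15 (SE) had an adjusted p of 0.0692. The sign in Sca1+ cells turned to -0.17 when arrays were centred on the median of all probe sets.

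Dsp, the plakin that no desmosome lacks, read 11.44, 11.26, 11.78 and 11.63 by probe set 1435494_s_at. Both dox arrays were above both untreated arrays, by 0.34 in Sca1+ and 0.36 in Sca1- cells, or 1.27-fold and 1.29-fold. This did not pass the test (limma effect 0.35 ± 0.15 SE, adjusted p = 0.0801), and passed it under 1 of 9 alternatives, with arrays centred on all probe sets (limma adjusted p = 0.00186; range over the alternatives 0.00186 to 0.313). Probe set 1435493_at gave 0.38 and 0.44, and the dim 1427610_at gave -0.37 in Sca1+ cells, with its Sca1- array at the floor under dox.

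Perp had the narrowest range of the members. It read 11.40, 11.25, 11.43 and 11.12, so its dox differences were 0.03 and -0.12, and their sign in Sca1+ cells turned when arrays were centred on all probe sets (-0.16) or quantile normalized (-0.20). The limma effect was -0.05 ± 0.15 (SE, adjusted p = 0.821).

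**Figure D3:**
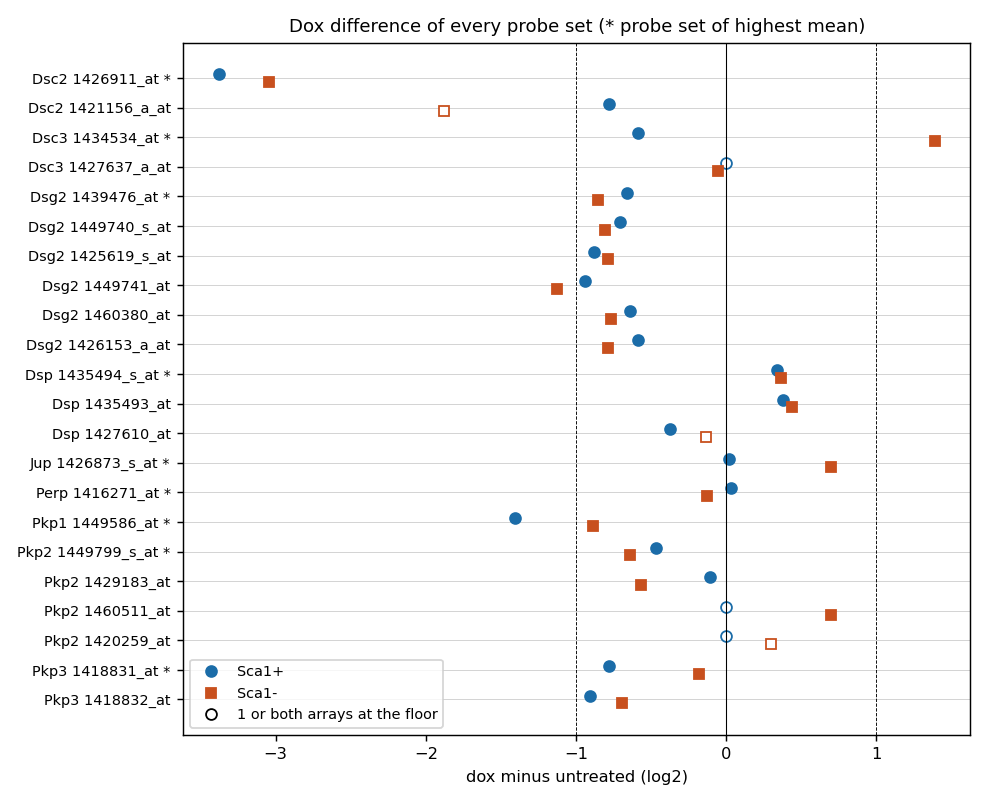
Dox minus untreated (log2, horizontal axis) for each of the 22 probe sets of the desmosome genes, in Sca1+ cells (blue circles) and Sca1- cells (orange squares); open symbols have an array at the floor and the asterisk marks the probe set used for each gene. All 6 Dsg2 probe sets and both Dsc2 and Pkp3 probe sets lie left of 0 in both fractions.

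The Sca1 fractions were compared without and with dox, as Sca1+ minus Sca1-. In the limma fit Pkp2 fell and Dsc3 rose in Sca1+ relative to Sca1- cells, and the other 7 members did not pass the test. Among all genes 3.64% were lower and 3.87% higher in Sca1+ cells by that test. Without dox 1 member, Dsc3, was at least 2-fold higher in Sca1+ cells, against 3.07% of all genes, and 1, Pkp2, was lower, against 3.33%. With dox 0 were higher, against 2.52%, and 1, again Pkp2, was lower, against 2.98%. Pkp2 was thus the 1 member at least 2-fold lower in both treatments, against 0.881% of all genes, and 0 were higher in both, against 1.08%. The median over the 9 members of the mean Sca1 difference was 0.06, beside -0.04 over all genes. Without the trend of variance on level the fit called 0 members and 0 genes for Sca1, while 1679 genes and 2 members, Dsc3 and Pkp2, had an unadjusted limma p under 0.05.

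Pkp2 was 2.66-fold lower in Sca1+ than in Sca1- cells without dox (-1.41) and 2.37-fold lower with it (-1.25). Both Sca1+ arrays were below both Sca1- arrays. Its second probe set, 1429183_at, read 6.45, 7.90, 6.34 and 7.33, a difference of -1.45 without dox and of -0.99, under 2-fold, with it. The other 2 Pkp2 probe sets lay at the floor in both Sca1+ groups and at or near it in both Sca1- groups. The limma effect was -1.33 ± 0.14 (SE, adjusted p = 2.37e-05); with the 4 probe sets averaged, the differences were -0.74 and -0.83 and the call was lost.

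The Sca1+ level of Dsc3 was 5.11-fold that of Sca1- cells without dox (a difference of 2.35) and 1.30-fold with it (0.37). The limma effect, an average of both, was 1.36 ± 0.31 (SE, adjusted p = 0.0109), and it rests on the untreated pair. That SE is moderated over all genes, and it was 0.50 without the trend of variance on level. The call held under 2 of 9 alternatives.

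The other 7 members did not reach a 2-fold Sca1 difference in either treatment. Dsg2 was lower in Sca1+ cells on every one of its 6 probe sets in both treatments, by -0.41 without and -0.22 with dox on the main one, and did not pass the test (limma adjusted p = 0.159). Pkp1 stood at -0.15 and -0.67 (limma adjusted p = 0.0888), where the first value became 0.07 with arrays centred on all probe sets. Dsp stood at 0.18 and 0.16 and Perp at 0.15 and 0.30, neither past the test. Dsc2, Jup and Pkp3 had values of opposite sign without and with dox, each within 0.51 of 0.

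**Figure D4:**
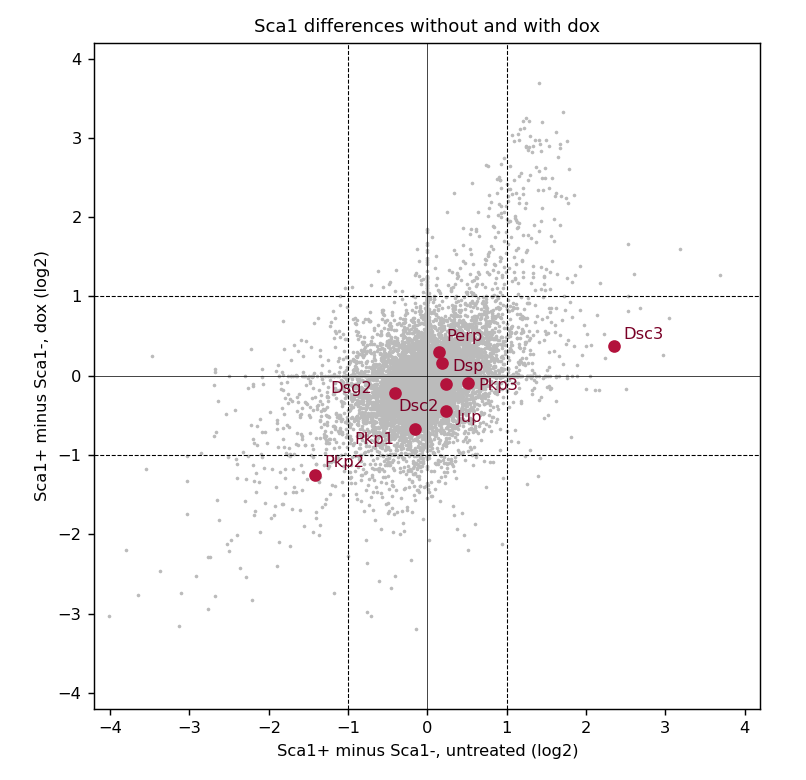
Sca1+ minus Sca1- (log2) without dox (horizontal axis) against with dox (vertical axis), for the 9 desmosome genes in red and all 12264 genes in grey, with dashed lines at 2-fold; 2 genes lie outside the axes. Pkp2 lies beyond 2-fold in both treatments, and Dsc3 only without dox.

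The fractions also differed in cycling genes, and so did the treatments. The summed linear level of 5 measured G2/M genes (Mki67, Top2a, Cdk1, Aurkb and Bub1b) was 6069, 2969, 2125 and 368. Its part in the Sca1 and dox differences of the desmosome genes was not tested. The difference between the dox effects of the fractions reached 1 (log2) for 1 member, Dsc3 at -1.98, against 7.13% of all genes. For the other 8 members it ran from -0.68 for Jup to 0.19 for Dsg2, and it has no test because it uses all 4 arrays.

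Of 8 other desmosomal genes listed, 6 had a named probe set and 5 were analysed. With dox 1 of them fell and 0 rose, beside 21.0% and 19.7% of all genes, the shares against which the counts of the lists below are also read. Ppl, which encodes the plakin periplakin, read 5.86 and 6.11 without dox, lay at the floor in dox Sca1+ cells and read 4.97 in dox Sca1- cells. It thus fell at least 5.79-fold in the Sca1+ and 2.21-fold in the Sca1- fraction (limma adjusted p = 0.000482). The median of this list was -0.24.

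Adherens junctions share plakoglobin with desmosomes and are anchored to actin. Of 12 genes analysed, 2 rose and 2 fell with dox, with a median of 0.05. Cdh1, which encodes E-cadherin, read 10.92, 11.32, 11.26 and 11.47 and did not pass the test for dox (limma adjusted p = 0.207). Cdh3, the P-cadherin gene of basal cells, fell 4.63-fold in the Sca1+ and 3.22-fold in the Sca1- fraction. Vcl, which encodes the actin-linking protein vinculin, was 2.03-fold and 2.14-fold higher. The dox differences in Sca1+ and Sca1- cells were 0.34 and 0.15 for Cdh1, beside -3.38 and -3.04 for Dsc2, -0.66 and -0.85 for Dsg2 and -0.59 and 1.39 for Dsc3.

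Hemidesmosomes anchor keratin to the basement membrane. Of 8 genes analysed, 5 fell and 1 rose with dox, and 3 passed 2-fold downward in each fraction, with a median of -0.74. For Dst, 1 of the 5, the probe sets disagreed. The one used, 1421117_at, gave -0.58 in Sca1+ and -0.53 in Sca1- cells, and 1423626_at gave 0.96 and 0.83. Itgb4, the beta4 integrin gene, read 9.40, 9.12, 7.38 and 7.69, which is 4.05-fold and 2.70-fold lower with dox. Lamb3, a basement membrane laminin chain, was 7.87-fold and 3.47-fold lower, and the tetraspanin gene Cd151 was 3.03-fold and 2.18-fold lower.

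Desmosomes hold filaments of keratin. Of 7 keratin genes analysed, 5 fell and 0 rose with dox, beside 21.0% and 19.7% of all genes, and the median was -1.11. Krt14 and Krt18 did not pass the test for dox. The basal keratin gene Krt5 had the largest fall of the list, 15.9-fold in the Sca1+ and 8.76-fold in the Sca1- fraction. The luminal keratin genes Krt8 (3.32-fold and 3.89-fold) and Krt7 (5.71-fold and 5.51-fold) were lower too. Both were also at least 2-fold lower in Sca1+ than in Sca1- cells in both treatments, against 0.881% of all genes. Krt8 stood at -1.69 without and -1.46 with dox and Krt7 at -2.37 and -2.42, beside -1.41 and -1.25 for Pkp2. In the limma fit for Sca1, 3 of the 7 (Krt7, Krt8 and Krt18) were lower in Sca1+ cells. Krt6a was the 1 called higher, and the shares of all genes were 3.64% and 3.87%. Krt14, the partner of Krt5, had dox differences of 0.10 and 0.38, and Krt18, the partner of Krt8, of 0.07 and -0.79 (limma adjusted p = 0.103); these 2 genes were named after their values were seen, to complete the count.

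Genes known to control desmosomal genes or epithelial identity were listed as well. Of 9 analysed, 2 rose (Zeb1 and Klf5) and 2 fell (Grhl1 and Grhl2) with dox, with a median of -0.28. Zeb1, a repressor of epithelial genes, lay at the floor without dox and read 6.05 and 5.82 with it, higher by at least 6.63-fold in Sca1+ and at least 5.65-fold in Sca1- cells; its 3 dimmer probe sets were at or within 0.44 of the floor. Trp63, the basal transcription factor p63, rose in Sca1+ relative to Sca1- cells, by 2.57-fold without dox and 2.11-fold with it (limma adjusted p = 1.54e-05), and did not pass the test for dox (limma adjusted p = 0.0756).

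**Figure D5:**
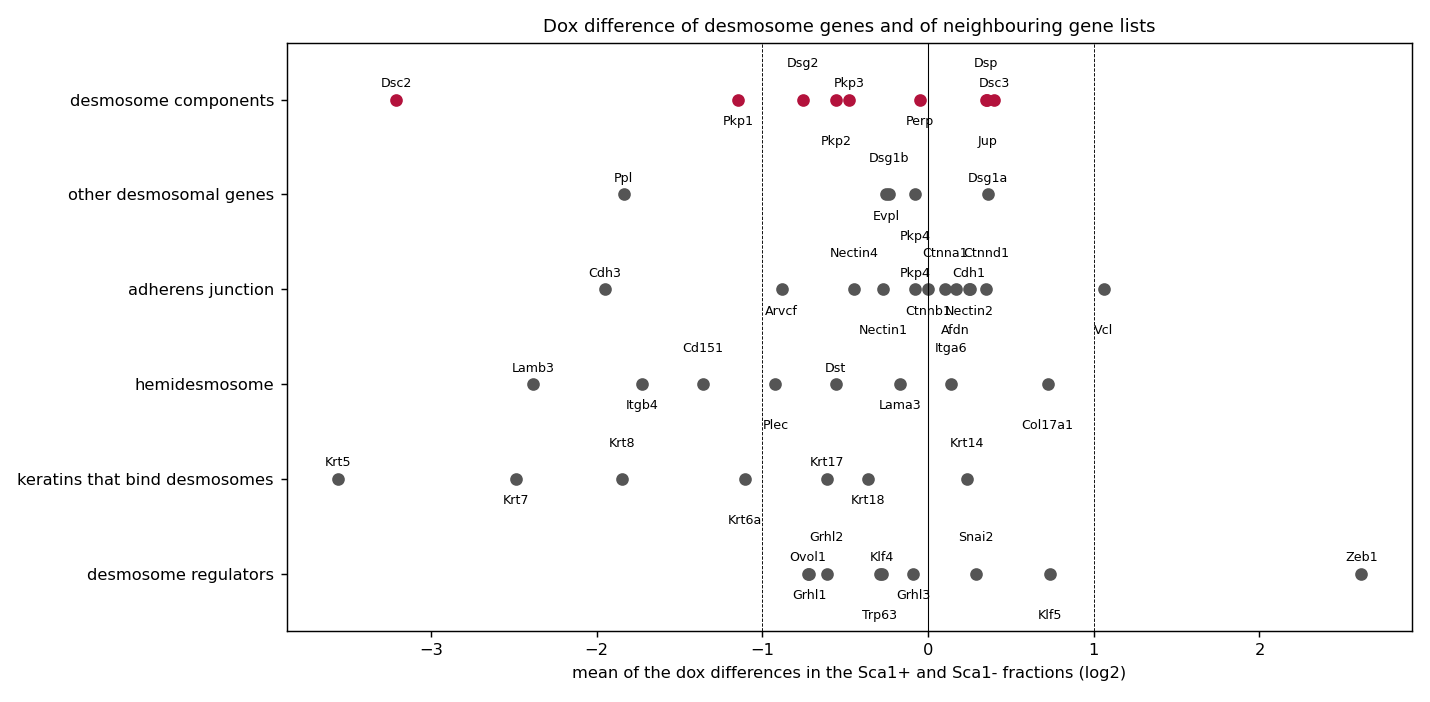
Mean of the dox differences in both fractions (log2, horizontal axis) for each analysed gene of 6 lists (rows), with the desmosome genes in red and dashed lines at 2-fold. Dsc2 and Pkp1 are the red points left of the 2-fold line, and a difference against an array at the floor is a lower bound in size.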

How the data were processed

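The authors deposited log2 expression levels for 45101 probe sets on 4 Affymetrix 3' arrays, 1 per group; the summarization and scaling steps are not stated in the labels. The log2 values deposited share a floor of 3.32. Per the labels' protocols, 50 to 500 ng of total RNA was labelled. A platform annotation gave 34958 probe sets 1 symbol and 932 several; the latter were not named. The main probe set of each of 18194 genes is that of highest mean. Genes with an array at or above the pooled median (3.63) were analysed, 12264 in all. Differences were counted at 2-fold. The additive fit used limma 3.58.1 in R 4.3.3 (eBayes with trend, 1 residual degree of freedom). It was also run on simulated arrays with independent noise, which cannot show the effect of a culture shared by both fractions. A probe set ending in s_at can match several transcripts, so Dsp, Pkp2 and Jup may hold signal of related transcripts. Genes of other lists are named if at least 2-fold different one way in both fractions or both treatments (at most 4 per list and direction). Cdh1, Itgb4 and Trp63 are named whatever their values. Krt6a, Krt14, Krt18, Dst, Col17a1, Klf5, Grhl1, Grhl2 and the cell-type markers are named outside this rule. Members and lists were chosen with earlier results of these data known. Alternatives were other scalings (centring on probe sets with a mean linear level of 100 or more, or on all; quantile), averaged probe sets, a floor of 32, a pseudocount of 16, other filters, and, added after seeing the data, limma without the trend. The precision of a level is limited by the single array per group.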

Additional observations from a re-analysis of the deposited data

Results flagged for a closer look

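Dsc3 differed with dox by -0.59 in Sca1+ and 1.39 in Sca1- cells, opposite directions in the fractions. Perp did so too, by 0.029 and -0.12. The Sca1+ minus Sca1- difference had opposite signs without and with dox for Pkp3 (0.51 and -0.090), Jup (0.24 and -0.44) and Dsc2 (0.23 and -0.10). Each value compares 1 array with 1 array, and none of these differences between effects was tested.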

How the results depend on the processing

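Each group is 1 array, so no replicate could be left out. For the same reason no analysis of paired replicates was possible. The additive fit compares treatments within fractions and fractions within treatments. The count of members at least 2-fold different with dox in both fractions was 1 under the 8 alternatives that bear on it, and the median dox effect stayed below 0 under each. With probe sets averaged, the count of members 2-fold different between Sca1 fractions in both treatments was 0, and the median Sca1 difference was -0.087. In the limma fit, the members called for Sca1 numbered 4 with arrays centred on all probe sets, where 845 of 12264 genes were called, and 1 with quantile normalization, a floor of 32, a pseudocount of 16 or a highest array of 100 or more. They numbered 0 with averaged probe sets, without the filter on low genes and without the trend, where 3, 1 and 2 had an unadjusted limma p under 0.05, beside 1894 of 12264, 1408 of 18194 and 1679 of 12264 genes. Members called for dox numbered 3 without the trend and 0 without the filter, where 4 had an unadjusted limma p under 0.05. That fit called none of 18194 genes for either term, with 4152 genes for dox and 1408 for Sca1 at an unadjusted limma p under 0.05. The cause was not tested. Over all genes, limma called 4993 for dox, and 3277 without the trend; for Sca1 it called 922, and 8 with averaged probe sets, 375 after quantile normalization, 260 with the higher floor and 310 with the stricter filter. Of 288 member differences, 278 kept their sign and side of the 2-fold line, 7 under 2-fold lost or changed sign, 3 fell under 2-fold and 0 reversed. Centring on all probe sets shifted the median gene by -0.19 for dox in Sca1+ cells and by 0.22 for Sca1 without dox. It moved the share of 2-fold genes that were higher from 39.7% to 27.3% and from 48.0% to 70.0%, and for Sca1 in both treatments from 55.0% to 65.8%.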
